A study of Mus musculus with 16 samples.

Results

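The strain dependence of the Cecr2 gene trap was measured as an interaction on 16 expression arrays, all 16 of the series, each holding the RNA of 1 whole mouse embryo. For each of 45037 probe sets it is the difference between mutant and wild type in BALB/cCrl minus the same difference in FVB/N, on the log2 scale. A value above 0 means that the level in mutants, relative to wild type, was higher in BALB/cCrl than in FVB/N. Every probe set entered the fit, and those of genes on chromosome 6 (1925 probe sets, 992 genes) are reported apart from those on other chromosomes (32811 probe sets, 17039 genes), because Cecr2 itself lies on chromosome 6. The remaining 10301 probe sets had no gene with a known place.

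The 4 groups of 4 embryos were BALB/cCrl wild type, BALB/cCrl homozygous for the trap allele Cecr2Gt45Bic, FVB/N wild type and FVB/N homozygous for Cecr2Gt45Bic. Per the labels, all embryos were female and had 11 to 14 somites, around the time the cranial neural tube closes, and the membranes around them had been removed. Both mutant lines are congenic, made by more than 10 generations of backcrossing. BALB/cCrl mutants came from matings of heterozygotes and FVB/N mutants from matings of homozygotes, so in FVB/N the embryo's genotype and that of its parents cannot be told apart. The sources used here do not give litters, or the somite number of each embryo, and p-values measure the spread between these 16 embryos.

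Cecr2 encodes a bromodomain protein that joins ISWI ATPases in chromatin remodelling complexes, and mouse embryos that lack it can fail to close the neural tube of the head (exencephaly). How often this happens is known to depend on the strain, with BALB/c embryos affected and FVB/N embryos largely resistant. In a gene trap, an inserted cassette captures the transcript and cuts it short. A congenic line is known to keep donor DNA on both sides of the allele that was selected for, so genes linked to the allele can differ from the recipient strain whether or not they respond to it.

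Arrays of a group correlated at 0.995 to 0.998 with each other. Principal component 1, with 39.3% of the variance, parted all BALB/cCrl from all FVB/N arrays. On component 3 (7.8%), BALB/cCrl wild type 1 and BALB/cCrl mutant 4 lay at 21.5 and 25.1, against -20.4 to 4.76 for the other 14 arrays. On component 2 (9.4%), FVB/N mutants 3 and 4 lay at -24.0 and -24.7, against -9.65 to 13.9 for the rest. BALB/cCrl wild type 1 and mutant 4 also carried signal of decidua, the maternal lining of the uterus. Gzmd, a granzyme of decidual cells, read 7.24 and 8.14 there and 2.93 to 3.36 on the other 14 arrays, and Gzme read 6.51 and 6.99 against 3.52 to 4.07. Prl8a2, the third decidua marker, parted them less, at 7.49 and 7.74 against 4.56 to 7.24. The summed linear signal of these markers was 422 and 624, against 46.3 to 174, so some of it also occurred elsewhere. The mean level of a trophoblast and decidua list was 6.31 and 6.38 there, against 5.42 to 5.64. Both pairs were left out in turn below, and the part of decidual RNA in the results was not tested otherwise. Of 19 markers of embryonic tissues (neural tube, somite, heart, endothelium, neural crest, floor plate, surface ectoderm and red cells), 18 were measured and all 18 lay above the highest Y-linked probe set without shared probes, which has no target in female embryos, in every group.

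Cecr2 itself fell in mutants of both strains and showed no called interaction. Its probe set 1457039_at read 8.29, 8.64, 8.07 and 8.24 in BALB/cCrl wild types and 6.04, 5.92, 5.90 and 5.92 in BALB/cCrl mutants. In FVB/N it read 8.14, 8.51, 8.19 and 8.14 in wild types and 6.15, 6.37, 6.15 and 6.29 in mutants. Mutants lay below wild types in both strains without overlap. It fell by 2.36 in BALB/cCrl and dropped by 2.00 in FVB/N (log2), and the interaction was -0.36 (95% interval -0.68 to -0.04, limma adjusted p = 0.56). The other probe set, 1431014_at, fell by 2.39 in BALB/cCrl and dropped by 2.96 in FVB/N, with an interaction of 0.57 (95% interval -0.15 to 1.30, limma adjusted p = 0.74). Both mutant groups lay near background for both probe sets by the ceiling of all Y-linked probe sets described below, and for 1431014_at also by the lower one. The 2 interactions had opposite signs, so which strain fell further cannot be read from these probe sets.

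The interaction was called for 34 of the 45037 probe sets (0.0755%) at a limma adjusted p under 0.05, 25 of them above 0 (0.0555%) and 9 below (0.02%). Off chromosome 6 it was called for 10 probe sets of 10 genes, or 0.0305% of the probe sets there (0.0274% positive and 0.00305% negative). On chromosome 6 it was called for 22 probe sets of 16 genes, or 1.14% (0.831% positive and 0.312% negative). The last 2 were probe sets with no placed gene. At an unadjusted p under 0.05 there were 3566 probe sets, or 7.92%. The called interactions ranged in size from 0.49 to 3.38 (log2). The median standard error (SE) of the interaction over all probe sets was 0.13.

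The FVB/N difference was the larger in size in 34 of 34, but BALB/cCrl added to some of the interactions. Psmb2 differed by -0.23 in BALB/cCrl and 0.30 in FVB/N, and Mecr by 0.53 and -0.67. Each of the 34 was also called as a mutant against wild type difference in FVB/N, where 268 probe sets were called in all (0.595%), and none of the 34 was called in BALB/cCrl, where 9 were (0.02%). The FVB/N difference was the larger in size in 34 of 34, and the signs were opposite in 31. The median size of the difference was 0.71 in FVB/N and 0.16 in BALB/cCrl. FVB/N mutant and wild type arrays did not overlap for any of the 34, against 6.83% of all probe sets, and BALB/cCrl arrays did not overlap for 6, against 5.12%. Both pairs were apart for those 6, against 0.462%. The interaction and the FVB/N difference share the FVB/N arrays, so the second is no independent check of the first. In the authors' tables normalised by gcRMA within each strain pair, the difference of differences had the same sign for 34 of 34. Those tables hold the same arrays, on which the 34 were picked, so this is no independent check either.

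A group counted as near background where its mean did not exceed the highest of 15 Y-linked probe sets. Female embryos have no Y-linked transcripts, but some of the 15 carry a suffix for probes shared with other transcripts. The 15 ran from 3.03 to 7.28 with a median of 3.78, and the 11 without such a suffix reached 6.24 at most. This ceiling may therefore lie above the true background. By this ceiling 13 of the 34 calls had a group near background: 1 probe set each of Cdk5rap1, Mecr, Ro60, 4932438A13Rik, Mia3, 3110021A11Rik, Etnk1, Zfand4, Prrt3, Smim10l1, Klhl42, H2aj and 6330417A16Rik. With values below the ceiling raised to it, their interactions lay between -0.93 and 0.80, so their measured sizes below rest in part on levels with only an upper bound. For 4 of them (Mecr, 4932438A13Rik, Prrt3 and Smim10l1) all groups lay under the ceiling. Their raised value, -0.11, has the other sign, comes from the ceiling alone and measures no interaction. Zfand4 shrank from 1.06 to 0.14, Klhl42 from -1.25 to -0.16 and Ro60 from 1.08 to 0.22. A lower ceiling, from 11 Y-linked probe sets without a suffix for shared probes, was chosen after the values were seen and left 6 of the 13.

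**Figure D1:**
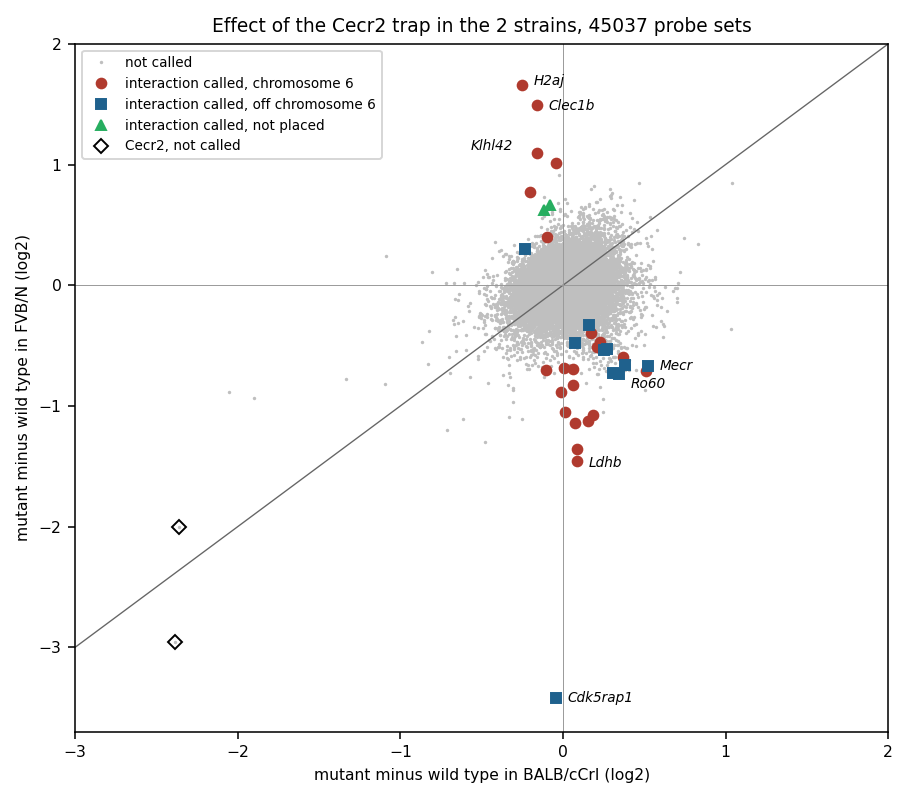
Each point is 1 of 45037 probe sets, with the difference between mutant and wild type in BALB/cCrl on the x axis and in FVB/N on the y axis, both as differences of the means of 4 arrays (log2). Coloured symbols are the 34 called interactions, open diamonds are the 2 probe sets of Cecr2, and the diagonal marks equal differences. The called probe sets lie along the vertical axis, within 0.53 of 0 in BALB/cCrl and 0.30 to 3.42 from it in FVB/N.

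The gene with the largest measured interaction was Cdk5rap1, on chromosome 2. Its product is a methylthiotransferase that modifies mitochondrial transfer RNAs. The 250 bases upstream of its start are shown with those of the 3 genes of chromosome 6 with the largest measured interactions (Ldhb, Clec1b and H2aj, described below), to give the sequence in front of the genes whose levels parted most. They come from the RefSeq table for GRCm38.p6, which is the C57BL/6J reference and neither of the strains measured, and run 5′ to 3′ on the gene's strand.
Cdk5rap1: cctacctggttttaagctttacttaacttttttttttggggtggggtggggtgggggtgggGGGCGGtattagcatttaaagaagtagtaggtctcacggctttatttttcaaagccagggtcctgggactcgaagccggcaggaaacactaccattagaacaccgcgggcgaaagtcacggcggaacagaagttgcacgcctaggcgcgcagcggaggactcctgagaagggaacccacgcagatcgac
Ldhb: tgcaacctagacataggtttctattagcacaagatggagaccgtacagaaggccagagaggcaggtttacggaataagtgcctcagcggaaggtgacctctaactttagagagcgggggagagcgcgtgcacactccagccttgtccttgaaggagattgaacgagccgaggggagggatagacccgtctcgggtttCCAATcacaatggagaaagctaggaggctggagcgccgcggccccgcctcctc
Clec1b: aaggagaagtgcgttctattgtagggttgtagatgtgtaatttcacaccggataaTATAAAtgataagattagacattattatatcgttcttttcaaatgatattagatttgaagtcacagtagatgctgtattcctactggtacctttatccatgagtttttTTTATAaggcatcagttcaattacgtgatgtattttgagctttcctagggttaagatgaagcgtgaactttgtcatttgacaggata
H2aj: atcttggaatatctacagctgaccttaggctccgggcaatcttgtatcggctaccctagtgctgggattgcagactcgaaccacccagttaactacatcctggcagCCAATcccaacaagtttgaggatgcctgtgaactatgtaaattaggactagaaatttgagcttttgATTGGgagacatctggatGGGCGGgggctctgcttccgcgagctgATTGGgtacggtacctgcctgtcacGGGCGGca

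The windows are chr2:154372720-154372969 (minus strand) for Cdk5rap1, chr6:142507958-142508207 (minus strand) for Ldhb, chr6:129397047-129397296 (plus strand) for Clec1b and chr6:136807998-136808247 (plus strand) for H2aj. The start that the table uses for Cdk5rap1 lies inside the gene's annotated span, so this window is within the gene. The other 3 directly precede the gene's start. Capitals mark exact matches, on either strand, to 3 short motifs with no overlap between them: TATAAA (the TATA box), CCAAT (the CCAAT box) and GGGCGG (the GC box). Cdk5rap1 held 1 match to GGGCGG, Ldhb 1 to CCAAT, Clec1b 2 to TATAAA, and H2aj 3 to CCAAT and 2 to GGGCGG. Of 32851 windows of the same length in the table, 12.4% held TATAAA, 33.8% CCAAT and 32.7% GGGCGG. The GC content was 54% for Cdk5rap1, 56.4% for Ldhb, 51.6% for H2aj and 33.2% for Clec1b, against a median of 52.4%. None of the 3 motifs occurred in all 4 windows, and a match describes these letters only.

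Off chromosome 6, 9 of the 10 called genes had a positive interaction and 1, Psmb2, a negative one. Cdk5rap1 (chr2:154222011-154373038) read 8.01, 8.22, 7.90 and 8.12 in BALB/cCrl wild types and 7.95, 8.12, 7.91 and 8.08 in BALB/cCrl mutants. In FVB/N wild types it read 7.89, 7.79, 7.83 and 7.73, and in FVB/N mutants 4.47, 4.47, 4.06 and 4.56. The 4 FVB/N mutants lay far below all 12 other arrays, and the 2 BALB/cCrl groups overlapped.

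Cdk5rap1 fell by 3.42 in FVB/N mutants (log2, SE 0.10), a 10.7-fold lower signal, and the interaction was 3.38 (SE 0.14, 95% interval 3.08 to 3.67, limma adjusted p = 3.88e-11). In BALB/cCrl the difference was -0.04 (limma adjusted p = 0.93). The FVB/N mutants read within the range of 15 Y-linked probe sets, 3.03 to 7.28 with a median of 3.78, so their level has only an upper bound. Against the ceiling of all 15, the fall was at least 1.63-fold, with an interaction of 0.67, and against the lower ceiling it was at least 3.31-fold, with an interaction of 1.69. At these bounds it was not the largest: by the first ceiling Clec1b, with no group near background, was larger in size at -1.66, and by the lower one H2aj, at -1.84. Cdk5rap1 was the one gene off chromosome 6 whose call was kept when any 1 of the 16 arrays was left out, with an interaction of 3.27 to 3.43. It had 1 probe set on the array. Of the 28 measured genes of mitochondrial transfer RNA modification and translation, it was the only one called, and the median interaction of the list was -0.07.

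The other 8 positive genes off chromosome 6 had interactions of 0.49 to 1.19. Each was called by 1 probe set whose BALB/cCrl difference was above 0 and whose FVB/N difference was below 0. By role they were an enzyme of mitochondrial fatty acid synthesis (Mecr), an RNA-binding protein that takes up misfolded RNAs (Ro60), a protein that loads collagen for export from the endoplasmic reticulum (Mia3), a repressor of neuronal genes in cells outside the nervous system (Rest), a spindle protein of dividing neural progenitors (Aspm), a phosphodiesterase of cyclic GMP (Pde5a), a subunit of a translation initiation factor (Eif3c), and 4932438A13Rik.

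Mecr (chr4:131843444-131867787) read 5.24, 5.57, 5.56 and 5.43 in BALB/cCrl wild types and 6.20, 6.21, 5.95 and 5.55 in BALB/cCrl mutants. It read 6.30, 6.26, 6.54 and 6.31 in FVB/N wild types and 5.57, 5.89, 5.96 and 5.31 in FVB/N mutants. FVB/N wild types were the highest of the 4 groups, and the 2 BALB/cCrl groups overlapped. The interaction was 1.19 (SE 0.21, limma adjusted p = 0.029), from a difference of 0.53 in BALB/cCrl, which did not pass the test, and a difference in FVB/N, where it fell by 0.67. All 4 groups lay near background by the ceiling of all Y-linked probe sets, so by that ceiling no interaction could be measured. BALB/cCrl wild types and FVB/N mutants lay there also by the lower one, where the interaction became 0.55. Its 2 other probe sets, brighter, gave interactions of -0.05 and -0.05 (limma adjusted p = 0.94 and 0.95).

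Ro60 (chr1:143750790-143777063) read 7.16, 7.39, 7.85 and 7.15 in BALB/cCrl wild types and 7.89, 7.64, 7.88 and 7.51 in BALB/cCrl mutants. The FVB/N wild types read 6.69, 6.79, 7.02 and 6.83, and FVB/N mutants 6.10, 5.81, 6.16 and 6.33. FVB/N mutants were the lowest of the 16 arrays, and FVB/N wild types also lay below every BALB/cCrl array. The interaction was 1.08 (SE 0.20, limma adjusted p = 0.046). Of its 3 other probe sets, all above 0, the highest reached 0.42.

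Mia3 (chr1:183326236-183369565) read 6.63, 6.94, 7.32 and 6.84 in BALB/cCrl wild types and 7.27, 7.28, 7.17 and 7.23 in BALB/cCrl mutants. Among FVB/N arrays, wild types read 7.34, 7.43, 7.48 and 7.59 and FVB/N mutants 6.62, 7.01, 6.72 and 6.57. FVB/N wild types lay above all other arrays, by little. The interaction was 1.03 (SE 0.17, limma adjusted p = 0.018), and its 3 other probe sets gave -0.09 to 0.24.

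Rest (chr5:77265494-77286432) read 8.77, 9.15, 9.28 and 8.93 in BALB/cCrl wild types and 9.32, 9.36, 9.39 and 9.13 in BALB/cCrl mutants. In FVB/N, wild types read 8.87, 9.18, 9.33 and 9.16, and FVB/N mutants 8.58, 8.77, 8.53 and 8.54. FVB/N mutants were the lowest group, while the other 3 groups overlapped. The interaction was 0.80 (SE 0.15, limma adjusted p = 0.046). Of the 3 other probe sets, 2 lay on the same side, at 0.45 and 0.23, and the brightest, with a mean of 9.2, gave -0.14 (limma adjusted p = 0.85).

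Aspm (chr1:139454188-139494088) read 7.47, 7.59, 7.68 and 7.44 in BALB/cCrl wild types and 7.95, 7.78, 7.73 and 7.75 in BALB/cCrl mutants. FVB/N wild types read 7.85, 8.15, 8.21 and 8.36, and FVB/N mutants 7.52, 7.77, 7.64 and 7.52. In both strains the 2 groups did not overlap, and they stood in opposite order, with mutants higher in BALB/cCrl and lower in FVB/N. The interaction was 0.79 (SE 0.14, limma adjusted p = 0.028). A second probe set, 1441520_at, gave 0.79 without passing the test (limma adjusted p = 0.17), and the brightest, with a mean of 10.48, gave -0.13.

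The 3 remaining positive genes were 4932438A13Rik (1.05, SE 0.18), Pde5a (0.55, SE 0.10) and Eif3c (0.49, SE 0.08), with limma adjusted p of 0.028, 0.046 and 0.028. Levels of 4932438A13Rik, between 4.74 and 5.87, lay in all 4 groups at or under the highest Y-linked probe set without shared probes. Eif3c was bright, at 11.48 to 11.64 in FVB/N mutants and 11.73 to 12.07 in the other groups. Its 3 other probe sets, brighter still, gave interactions of -0.03 to 0.05, and those of Pde5a -0.08 and -0.07.

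Psmb2, a subunit of the proteasome core (chr4:126677637-126709715), was the one negative call off chromosome 6. It read 10.70, 10.74, 10.47 and 10.51 in BALB/cCrl wild types and 10.31, 10.46, 10.47 and 10.26 in BALB/cCrl mutants. Among FVB/N arrays, wild types read 10.32, 10.26, 10.33 and 10.41, and FVB/N mutants 10.57, 10.65, 10.63 and 10.67. Mutants were higher than wild types in FVB/N without overlap, and BALB/cCrl groups overlapped at 10.47. The interaction was -0.53 (SE 0.09, limma adjusted p = 0.028).

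**Figure D2:**
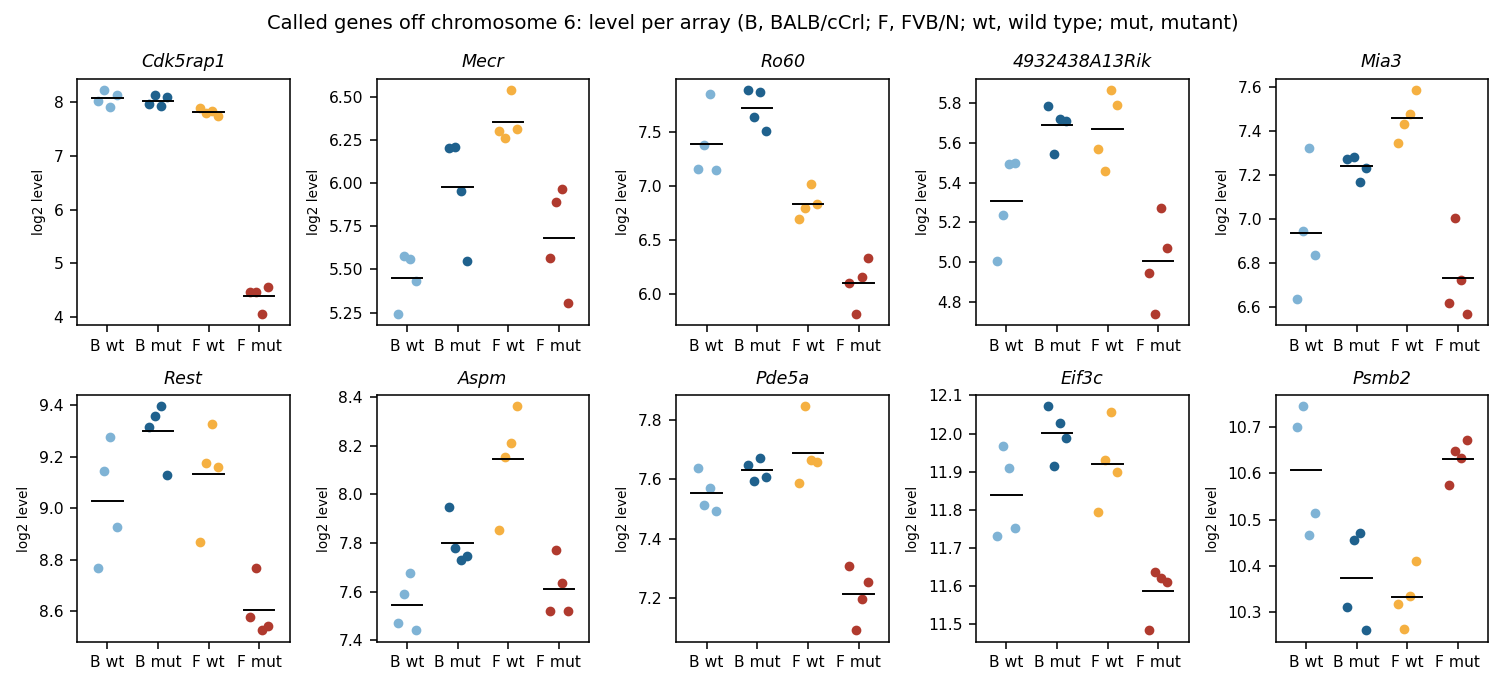
Level (log2, y axis, 1 scale per panel) of the 10 called genes off chromosome 6 on each of 16 arrays, by their called probe set. Points are arrays, bars are means of 4, and the panels run from the most positive interaction to the most negative. In the panel of Cdk5rap1 the 4 FVB/N mutants lie at 4.06 to 4.56 and the other 12 arrays between 7.73 and 8.22, while in the other panels the groups lie closer.

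Over the 10 genes there were 23 further probe sets, of which none was called and 12 had the sign of the called one. Without BALB/cCrl wild type 1 and mutant 4, the 2 arrays with the most decidual signal, the calls off chromosome 6 numbered 3. Without FVB/N mutants 3 and 4 they also numbered 3. Leaving out single arrays gave 1 call (without BALB/cCrl mutant 1) to 96 (without BALB/cCrl wild type 3).

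On chromosome 6, 11 of the 16 called genes had positive and 5 had negative interactions. For 18 of the 22 probe sets, FVB/N wild type was the group whose mean lay farthest from the other 3, and FVB/N mutants lay nearer to both BALB/cCrl groups. For the other 4 it was the FVB/N mutants. Off chromosome 6 these counts were 4 and 6. In all, for 27 of the 34 calls the 4 arrays of 1 group lay outside the range of the other 12, against 3.38% of all probe sets. The 34 were picked for their interaction on these same arrays, so a higher share than that was built in.

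Ldhb, the B subunit of lactate dehydrogenase (chr6:142490249-142507957), was called by all 4 of its probe sets. The one with the largest interaction, 1434499_a_at, read 8.81, 8.85, 8.72 and 8.76 in BALB/cCrl wild types and 8.98, 8.71, 8.92 and 8.87 in BALB/cCrl mutants. In FVB/N, wild types read 10.40, 10.44, 10.65 and 10.53, and FVB/N mutants 9.14, 9.07, 8.76 and 9.22. FVB/N wild types lay above all 12 other arrays, and the means of the other 3 groups spanned 0.26. In FVB/N mutants it fell by 1.46, or 2.75-fold, and the interaction was 1.54 (SE 0.12, limma adjusted p = 1.97e-06). The other 3 probe sets gave interactions of 1.22 to 1.44.

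Clec1b (chr6:129397297-129405413) encodes a receptor of platelets and megakaryocytes. It read 8.34, 8.35, 8.46 and 8.37 in BALB/cCrl wild types and 8.38, 8.0, 8.29 and 8.20 in BALB/cCrl mutants. The FVB/N wild types read 7.30, 6.86, 7.13 and 7.08, and FVB/N mutants 8.72, 8.71, 8.43 and 8.51. FVB/N wild types were the low group. The rise in FVB/N mutants was 1.5, or 2.82-fold, and the interaction was -1.66 (SE 0.14, limma adjusted p = 2.6e-06).

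H2aj, which encodes a variant of histone H2A (chr6:136808248-136810074), read 8.15, 8.24, 7.95 and 8.07 in BALB/cCrl wild types and 7.80, 7.90, 7.92 and 7.77 in BALB/cCrl mutants. The FVB/N wild types read 6.4, 5.89, 5.82 and 5.83, and FVB/N mutants 7.98, 7.71, 7.55 and 7.33. The FVB/N wild types were again low, without overlap with any other array. The measured rise in FVB/N mutants was 1.66, or 3.15-fold, and the interaction was -1.91 (SE 0.18, limma adjusted p = 2.05e-05). FVB/N wild types lay near background by the ceiling of all Y-linked probe sets, which makes the rise at least 1.6-fold and the interaction -0.93. Its 2 other probe sets did not follow, at -0.07 for the brightest, with a mean of 10.45, and 0.49 for the other.

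The other negative genes were Klhl42, a substrate adaptor of a ubiquitin ligase, Fgfr1op2, a member of a phosphatase complex, and Recql, a DNA helicase. Klhl42 read 7.03, 7.13, 7.14 and 6.95 in BALB/cCrl wild types and 6.77, 6.94, 6.95 and 6.97 in BALB/cCrl mutants. In FVB/N, wild types read 5.6, 5.88, 6.5 and 5.43, and FVB/N mutants 6.97, 7.07, 6.98 and 6.76. The FVB/N wild types were below all others but spread over more than 1 unit, and the interaction was -1.25 (SE 0.22, limma adjusted p = 0.028).

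Fgfr1op2 read 9.28, 9.25, 9.23 and 9.29 in FVB/N wild types and 9.90 to 10.47 on the other 12 arrays, with an interaction of -1.05 (SE 0.14, limma adjusted p = 0.0015). Its 2 other probe sets gave 0.01 and 0.04. Recql was called by 2 of 5 probe sets, at -0.98 (SE 0.09) and -0.50 (SE 0.09). Another, at -0.44, had the same sign and missed the threshold (limma adjusted p = 0.078), and one lay on the other side at 0.44 (limma adjusted p = 0.45). The probe sets of Recql thus split in direction.

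Among the positive genes, 3110021A11Rik, Zfand4 and Emp1 had the same shape as Ldhb. The first was called by both its probe sets, at 1.27 (SE 0.17) and 0.89 (SE 0.13). On the first of these, FVB/N wild types read 8.18, 7.97, 7.54 and 7.66 and the other 12 arrays 6.53 to 7.18. Zfand4 (1.06, SE 0.19) read 7.12 to 7.39 in FVB/N wild types and 5.90 to 6.61 elsewhere. Emp1, a membrane protein of epithelia (0.88, SE 0.16), read 8.15 to 8.44 and 7.12 to 7.65.

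Mbd4, a DNA glycosylase that repairs mismatches at methylated sites (chr6:115840697-115853400), had the other shape. It read 9.18, 9.28, 9.40 and 9.27 in BALB/cCrl wild types, 9.36, 9.46, 9.34 and 9.21 in BALB/cCrl mutants and 9.54, 9.58, 9.65 and 9.44 in FVB/N wild types. FVB/N mutants, at 8.90, 9.01, 8.79 and 8.75, lay below all of these. In FVB/N mutants it fell by 0.69, or 1.61-fold, and the interaction was 0.75 (SE 0.10, limma adjusted p = 0.0018). Its 2 other probe sets, dimmer, gave -0.13 and 0.36, and neither was called.

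Kdm5a, a histone demethylase, and Etnk1, an ethanolamine kinase, likewise had their lowest means in FVB/N mutants. The midpoint of the Kdm5a gene lies 0.314 Mb from that of Cecr2. The interactions were 0.97 (SE 0.18) for Kdm5a and 1.22 (SE 0.23) for Etnk1. The limma adjusted p was 0.046 for both. Of the 5 other probe sets of Kdm5a, 1 lay above 0, at 0.54, and the brightest gave -0.01. The 4 other probe sets of Etnk1 gave -0.19 to 0.09, with -0.01 for the brightest, and the 1 other of Emp1 gave -0.10. Prrt3 (0.71, SE 0.13) and one of the 2 called probe sets of Smim10l1 (0.69, SE 0.11) lay in all 4 groups under the highest Y-linked probe set without shared probes. The second called probe set of Smim10l1, bright enough to read 7.71 to 8.72, gave 0.60 (SE 0.10). The last 2 genes, Polr1a, the largest subunit of RNA polymerase I (0.70, SE 0.13), and Etv6, a transcriptional repressor of the ETS family (0.57, SE 0.10), fell outside the naming rule, as did Smim10l1, and are given to complete the account. The brightest probe set of Polr1a, with a mean of 10.11, gave 0.01. Over the 16 genes there were 28 further probe sets, of which none was called and 11 had the sign of the called one.

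**Figure D3:**
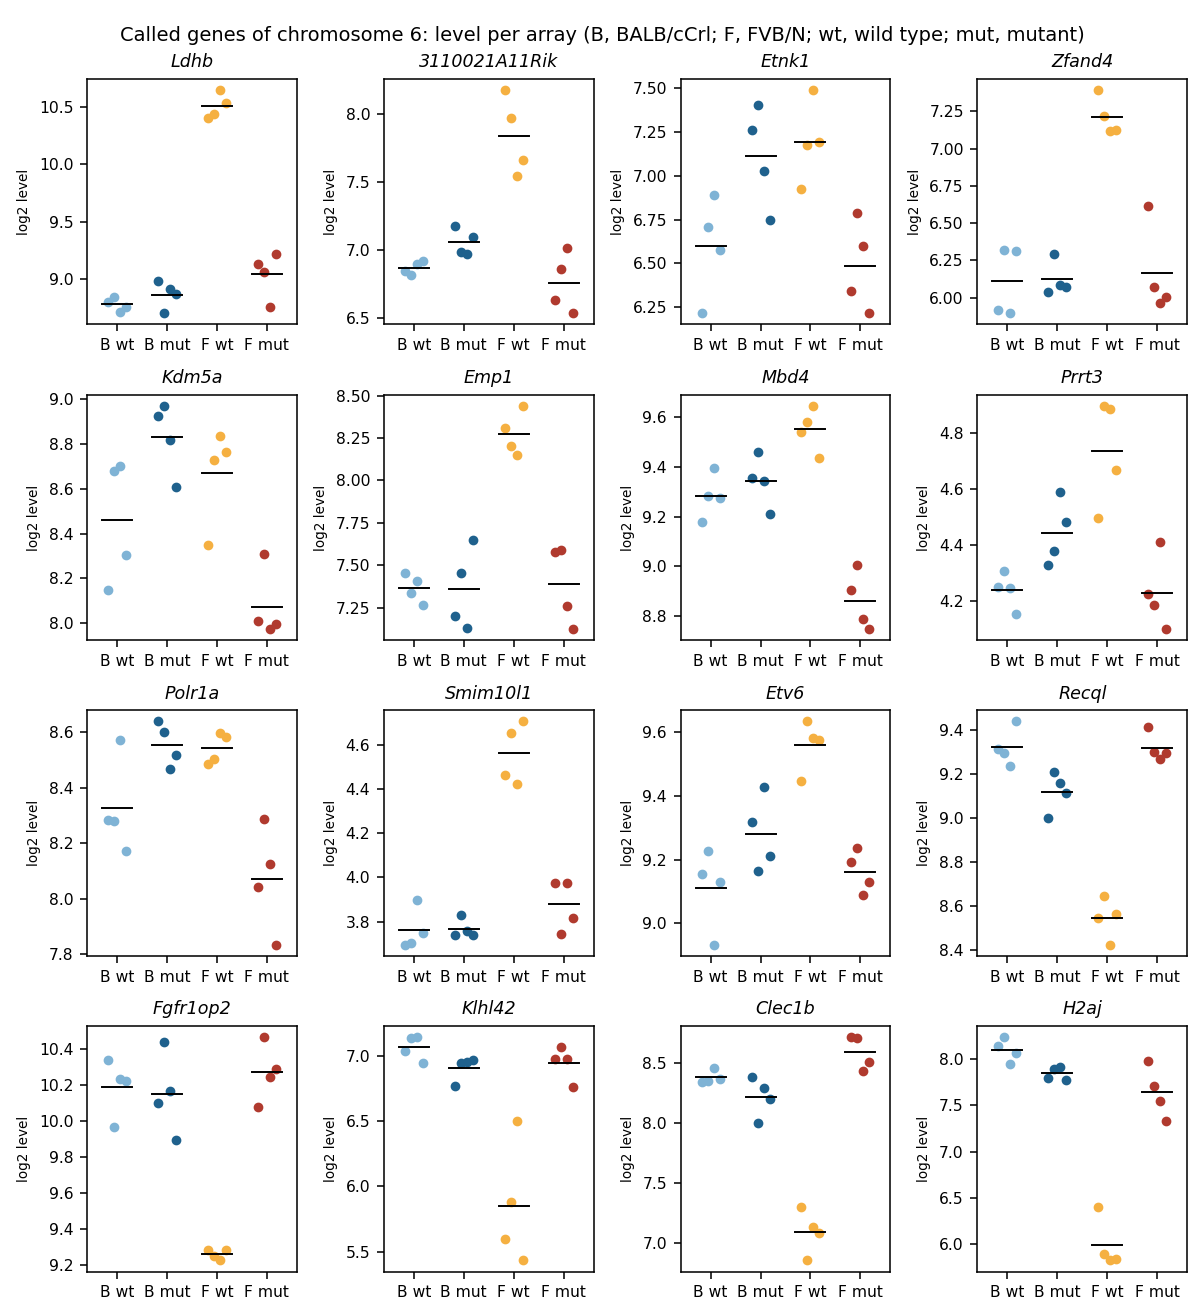
Level (log2, y axis, 1 scale per panel) of the 16 called genes of chromosome 6 on each of 16 arrays, by the called probe set with the largest interaction. Points are arrays and bars are means of 4. In most panels the FVB/N wild types stand apart, as in Ldhb at 10.40 to 10.65 against 8.71 to 9.22, and in Mbd4 the FVB/N mutants do.

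Along chromosome 6 the calls lay near Cecr2 (chr6:120666314-120771191) and beyond it. Of 233 genes within 10 Mb, 6 were called (2.58%), of 78 genes at 10 to 20 Mb 4 were (5.13%), and of 105 genes at 20 to 30 Mb 5 were (4.76%). Polr1a, 48.8 Mb away, was the 1 call among 225 genes at 30 to 60 Mb (0.444%), and none of 350 genes farther away was called. The nearest called genes were Kdm5a and 3110021A11Rik, 0.314 and 0.870 Mb off. These shares are descriptions, with no test of the distance.

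**Figure D4:**
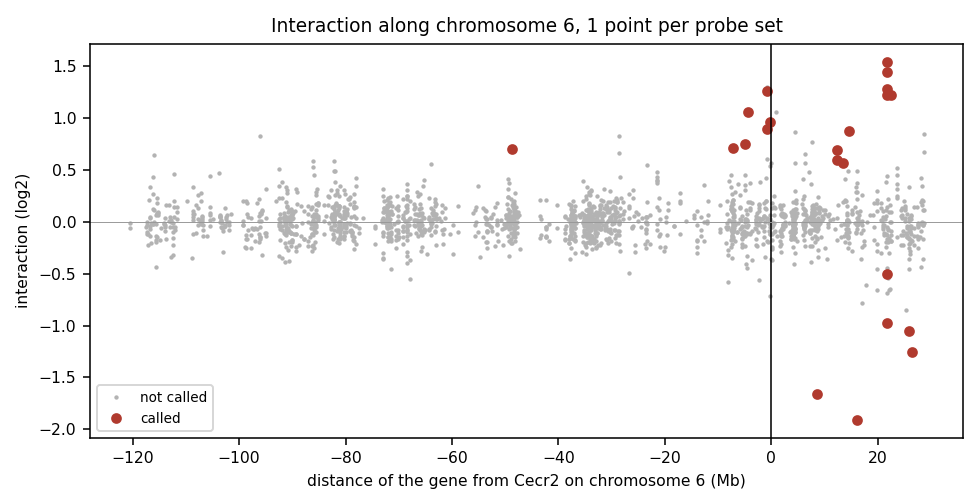
Interaction (log2, y axis) of the probe sets of chromosome 6 against the distance of their gene from Cecr2 (Mb, x axis, higher coordinates to the right). Red points are the 22 called probe sets, which lie between 7.22 Mb to the left of Cecr2 (Prrt3) and 26.4 Mb to its right (Klhl42), except Polr1a 48.8 Mb to the left.

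Of the probe sets called in FVB/N, 22 of 59 on chromosome 6 also had a called interaction (37.3%), against 10 of 160 off it (6.25%). Of the same 160 probe sets off chromosome 6, 81 had the same sign in BALB/cCrl and 3 were called there too. The 2 strains had the same sign in 56.0% of all probe sets off chromosome 6. The interaction had an unadjusted p under 0.05 for 125 of the 160, against 8.16% of all probe sets off chromosome 6. The 160 were picked on FVB/N arrays that the interaction shares, so a high number was built in. Most FVB/N differences off chromosome 6 thus had neither a called interaction nor a call in BALB/cCrl, and for these the data show neither that the strains differ nor that they act alike.

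Without BALB/cCrl wild type 1 and mutant 4 the calls on chromosome 6 numbered 13, and without FVB/N mutants 3 and 4 they numbered 11. Leaving out single arrays gave 11 (without FVB/N wild type 2) to 30 (without BALB/cCrl wild type 3), and 11 of the 22 probe sets were called in every one of these fits. They were the 4 of Ldhb, the 2 of 3110021A11Rik and 1 each of Mbd4, Recql, Fgfr1op2, Clec1b and H2aj.

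Of the calls with no placed gene, 6330417A16Rik had an interaction of -0.74 (SE 0.14, limma adjusted p = 0.046). It read 5.84, 5.80, 5.54 and 5.75 in BALB/cCrl wild types and 5.48, 5.75, 5.71 and 5.67 in BALB/cCrl mutants. FVB/N arrays read 6.76, 6.5, 6.49 and 6.54 in wild types and 7.37, 7.29, 7.01 and 7.27 in mutants. All FVB/N arrays lay above all BALB/cCrl arrays, with FVB/N mutants the highest group, and both BALB/cCrl groups lay at or under the highest Y-linked probe set without shared probes.

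For the genes that changed in both strains by the same probe set, the interactions ran from -0.56 to 0.57. Besides Cecr2 these were Csn3 (kappa-casein), Alx1 (a homeobox factor of head mesenchyme), Zfhx4 (a zinc finger homeobox factor) and Zfp9, which fell, and Ncapd2 (a condensin subunit) and Cdca3 (a cell cycle protein), which rose. Zfp9, Ncapd2 and Cdca3 lie on chromosome 6, as Cecr2 does, while Csn3, Alx1 and Zfhx4 lie off it. Whether the genes on chromosome 6 respond to the trap or differ through linked donor DNA was not tested. Cdca3 rose by 0.53 in BALB/cCrl and 0.57 in FVB/N, with an interaction of -0.03 (95% interval -0.19 to 0.12), and Ncapd2 by 1.04 and 0.84, with 0.19 (-0.02 to 0.40). Alx1 fell by 0.83 and dropped by 0.65, with an interaction of -0.18 (-0.48 to 0.12), Csn3 fell by 1.10 and dropped by 0.82, with -0.28 (-0.57 to 0.02), and Zfhx4 fell by 0.42 and dropped by 0.35, with -0.06 (-0.27 to 0.14). Zfp9 fell by 1.34 and dropped by 0.77, with an interaction of -0.56 (-1.0 to -0.12). Mutants of both strains lay near background for Csn3, Alx1 and Pianp by the ceiling of all Y-linked probe sets. None of these interactions was called (limma adjusted p 0.49 to 0.95), and the intervals, not the missing call, bound how far the strains could differ. Pianp, also on chromosome 6, was called in BALB/cCrl alone, where it fell by 0.66, against a difference of -0.26 in FVB/N. The interaction of Pianp was -0.40 (-0.64 to -0.17, limma adjusted p = 0.23). Csn3, Ncapd2, Alx1, Zfhx4 and Cdca3 also had other, dimmer probe sets, which were called in neither strain. In BALB/cCrl and FVB/N these differed by -0.07 and -0.07 (Csn3), 0.28 and 0.43 (Ncapd2), and -0.42 and -0.35 (Alx1). For Zfhx4 the differences were -0.26 and -0.23. For Cdca3 they were 0.06 and 0.09 (1448000_at) and 0.01 and 0.12 (1448001_x_at).

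In 27 gene lists, called members were 1 of 30 in hypoxia response and glycolysis (Ldhb), 1 of 28 in mitochondrial transfer RNA modification (Cdk5rap1) and 1 of 13 histone genes (H2aj, by a probe set other than its brightest), and the other 24 lists held none. The background was 0.143% of the 18193 genes by any probe set and 0.066% by the brightest one. Lists were described by the median interaction of their members, each by its brightest probe set, beside -0.01 over all genes. Of 58 measured genes of cranial neural tube closure, none was called and the median was 0.04. An unadjusted p under 0.05 was found for 8 of them, Cecr2 itself included (13.8%, against 6.95% of all genes). Of the 15 genes of ISWI complexes and Cecr2 partners, none was called and the median was 0.03.

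Medians beyond 0.1 in size were found in 5 lists. Over all genes, 47.3% had an interaction above 0 and 6.95% an unadjusted p under 0.05. In hypoxia response and glycolysis 30 of 30 genes lay above 0, with a median of 0.13 and 10 members (33.3%) at an unadjusted p under 0.05. The mean level of the list was 10.54 to 10.72 in BALB/cCrl wild types, 10.65 to 10.78 in BALB/cCrl mutants, 10.61 to 10.66 in FVB/N wild types and 10.48 to 10.59 in FVB/N mutants. FVB/N groups did not overlap and BALB/cCrl groups did. Of the 30 genes 5 lie on chromosome 6, and the median over the rest was 0.14. Ldhb, 1 of the 5, fell by 1.14 in FVB/N mutants by its brightest probe set, which lowers their list mean. Whether the FVB/N groups stay apart without Ldhb was not tested. Ddit4, a stress-induced inhibitor of mTOR signalling, and Bnip3, a mitophagy receptor, had interactions of 0.53 (SE 0.23) and 0.47 (SE 0.13), with limma adjusted p of 0.59 and 0.22. Both were named after their values were seen.

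In hedgehog signalling and the ventral neural tube, 20 of 20 genes lay above 0, 2 of them (10%) at an unadjusted p under 0.05. The median was 0.18, from a median of -0.03 in BALB/cCrl and -0.17 in FVB/N. The mean level of the list was 8.57 to 8.87 in FVB/N mutants and 8.82 to 9.05 in the other groups. Olig2, a factor of motor neuron progenitors, and Foxa2, a floor plate factor, gave 0.61 (SE 0.30) and 0.41 (SE 0.14), with limma adjusted p of 0.64 and 0.39, also named after their values were seen. Cardiac muscle went the other way, with 5 of 28 genes above 0, a median of -0.26 and 5 members (17.9%) at an unadjusted p under 0.05. Its mean level was 9.34 to 9.79 in FVB/N wild types and 9.64 to 9.74 in FVB/N mutants, so the 2 groups overlapped. Genes of a list share arrays and tissue, no list was tested, and in whole embryos fewer cells of a type and less RNA per cell cannot be told apart.

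**Figure D5:**
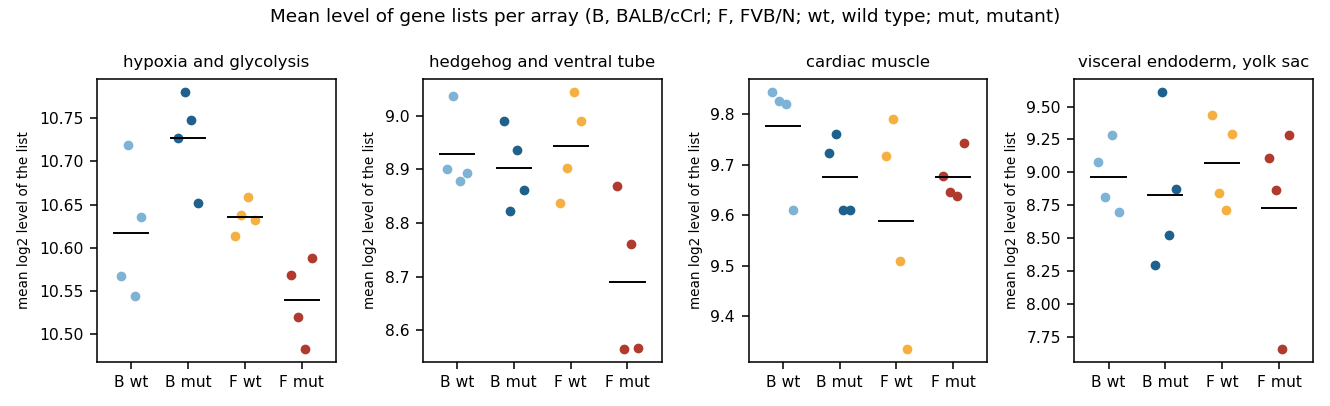
Mean level (log2, y axis, 1 scale per panel) of the measured genes of 4 lists on each of 16 arrays. Points are arrays and bars are means of 4. In hypoxia response and glycolysis, a mean that includes Ldhb of chromosome 6, the 4 FVB/N mutants (10.48 to 10.59) lie below the 4 FVB/N wild types (10.61 to 10.66). In visceral endoderm and yolk sac FVB/N mutant 3 lies lowest, at 7.66.

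The other 2 lists were primitive erythroid cells (median 0.16) and visceral endoderm and yolk sac (median 0.21). Above 0 lay 20 of 23 members of the first and 24 of 27 of the second. At an unadjusted p under 0.05 there were 1 member of the first (4.35%) and 0 of the second. The mean level of the yolk sac list spread from 7.66 to 9.28 in FVB/N mutants and from 8.30 to 9.61 in BALB/cCrl mutants, and its median was -0.06 without FVB/N mutants 3 and 4, -0.16 without FVB/N mutant 3 alone and -0.06 without BALB/cCrl mutant 2. The erythroid median was -0.007 without FVB/N wild type 3 and 0.01 without FVB/N mutants 3 and 4. The summed linear signal of the 4 yolk sac markers (Afp, Ttr, Apoa1 and Cubn) ran from 5530 to 26273 in FVB/N mutants, 16459 to 28843 in FVB/N wild types, 14293 to 25931 in BALB/cCrl wild types and 10388 to 34295 in BALB/cCrl mutants. Of the 12 measured markers of yolk sac, trophoblast, decidua, uterus and maternal blood, those 4 lay above the level of Y-linked probe sets in every group and 6 lay at or under it in every group (Tpbpa, Gzmd, Gzme, Ltf, Ptprc and Lyz2). Gzmd and Gzme were at or under it as group means and high on the 2 arrays given above. None of the 12 had a called interaction. Whether the amount of adhering yolk sac had a part in the list results was not tested.

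No measure of array quality passed the test for an interaction. The difference of differences was -0.01 for the 3′ to 5′ signal of Gapdh, -0.10 for that of Actb, 0.008 for the array median and 0.03 for the interquartile range (log2). The exact permutation p, two-sided and with genotypes permuted within strains (4900 regroupings), was 0.69, 0.12, 0.64 and 0.61, and 0.46 to 0.69 after adjustment over the 4 measures.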

How the data were processed

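Log2 expression values of 16 arrays, 1 embryo each, were taken from the deposited values of the series, which the authors normalised over all arrays together (45037 probe sets). The authors also deposited log2 tables normalised by gcRMA for pairs of groups, whose group differences were set beside these with no test. The submitters' processing notes name RMA and GCRMA, without saying which values each made. Genes came from the platform annotation and positions from RefSeq on GRCm38.p6: 34945 probe sets had 1 gene symbol, 932 several and 9160 none. The authors' deposited text annotation (other than values) was used for calls with no placed gene, of which 1 is not reported here. Arrays carry no depth, so their number, 4 a group, limits the precision.

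All 16 arrays were fitted in limma 3.58.1 (R 4.3.3) with 1 mean per group, and the spread was moderated by empirical Bayes with an intensity trend. P-values are two-sided with Benjamini-Hochberg adjustment across all 45037 probe sets, called under 0.05. The fit was tested on simulated data with known changes. Alternatives were median centring, quantile normalisation, no intensity trend, array weights, a mean of at least 6, a size of at least 0.5, a robust fit, a replicate block and arrays left out. A probe set counted as near background at or under the highest Y-linked probe set of the array, and a second ceiling without probe sets whose suffix marks shared probes was added after the values were seen. A gene's list value came from its probe set with the highest mean. Named genes were Cecr2, up to 12 called genes of each direction off chromosome 6 and 8 on it, called list members and genes called in both strains. These choices and the 27 lists were made with earlier results of these data known. Probe sequences were not used here, and whether probes cover bases that differ between the strains was not tested. Tables and figures were made with Python 3.11.15, pandas 2.3.3, numpy 2.4.6 and matplotlib 3.10.9.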

Additional observations from a re-analysis of the deposited data

Results flagged for a closer look

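For 34 probe sets the difference between mutant and wild type was not the same in the 2 strains by the limma interaction test. Off chromosome 6 the interactions (log2) were 3.38 for Cdk5rap1, 1.19 for Mecr, 1.08 for Ro60, 1.05 for 4932438A13Rik, 1.03 for Mia3, 0.80 for Rest, 0.79 for Aspm, 0.55 for Pde5a, 0.49 for Eif3c and -0.53 for Psmb2. On chromosome 6 the positive ones were 1.54, 1.44, 1.28 and 1.22 for Ldhb, 1.27 and 0.89 for 3110021A11Rik, 1.22 for Etnk1, 1.06 for Zfand4, 0.97 for Kdm5a, 0.88 for Emp1, 0.75 for Mbd4, 0.71 for Prrt3, 0.70 for Polr1a, 0.69 and 0.60 for Smim10l1 and 0.57 for Etv6. The negative ones there were -1.91 for H2aj, -1.66 for Clec1b, -1.25 for Klhl42, -1.05 for Fgfr1op2, and -0.98 and -0.50 for Recql. A probe set with no placed gene gave -0.74 (6330417A16Rik).

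Single arrays lay far from the other 3 of their group in 8 of 172 groups tested by Dixon's criterion, where chance gives about 8.6. They were Zfand4 in FVB/N mutant 1 (6.61), Kdm5a in FVB/N mutant 2 (8.31), Klhl42 in BALB/cCrl mutant 1 (6.77) and H2aj in FVB/N wild type 1 (6.4). Among the genes called in both strains they were Cecr2 in FVB/N wild type 2 (8.51), Csn3 in BALB/cCrl wild type 1 (7.87), Ncapd2 in BALB/cCrl wild type 3 (10.61) and Alx1 in BALB/cCrl wild type 1 (7.80).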

How the results depend on the processing

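The number of calls depended on the settings, while no called interaction reversed its sign in any alternative fit. Raising values to the background ceiling, described above, was not among these fits. Calls over all probe sets are given as a percent of the 45037, against 0.0755% as reported. Without the intensity trend they were 0.0444%, with 5 off chromosome 6 and 14 on it. Array weights gave 0.153% and 36 off chromosome 6. Leaving out BALB/cCrl wild type 1 and mutant 4 gave 0.0377%, with 3 and 13, and leaving out FVB/N mutants 3 and 4 gave 0.0333%, with 3 and 11. Leaving out 1 array gave 0.0311% to 0.304%, with 1 to 96 calls off chromosome 6 and 11 to 30 on it. The highest values came without BALB/cCrl wild type 3, and the cause was not tested. The count off chromosome 6 moved by over 1.5 times under 14 of the 16 omissions, all but those of BALB/cCrl mutant 2 and FVB/N mutant 3, and 10 of them gave fewer calls. On chromosome 6 the count fell below the reported one by over 1.5 times under 8 omissions, those of BALB/cCrl wild types 1 and 4 and mutants 1 and 3, FVB/N wild types 2, 3 and 4 and FVB/N mutant 1. Of the 34 calls, 13 held under all 25 alternatives, among them Cdk5rap1 and 11 probe sets of chromosome 6.

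A replicate block gave 0.198% of all probe sets, with 51 calls off chromosome 6 and 28 on it. Deviations of same-numbered arrays correlated at -0.23 to 0.22 over 24 pairs, 7 of them over 0.1. Of 48 best matches, 15 had the array's own number. Whether the numbers pair the samples was not tested, and these values cannot decide it. BALB/cCrl wild type 1 and mutant 4, the arrays with the most decidual signal, correlated at 0.42. The median of hypoxia response and glycolysis ranged from 0.11 to 0.17 over the alternatives, that of hedgehog signalling from 0.13 to 0.26 and that of cardiac muscle from -0.32 to -0.16, while that of visceral endoderm and yolk sac ran from -0.16 to 0.44. With the ceiling of all Y-linked probe sets, 13 calls had a group at or under it and 4 had all groups there. With the lower ceiling these counts were 6 and 3.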
